A study of Drosophila melanogaster with 2 samples.

Results

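The Cpr family of cuticle protein genes was taken as every protein-coding gene of the dm6 annotation whose symbol is Cpr followed by a number, which gave 70 genes of 13945 on the chromosome arms 2L, 2R, 3L, 3R, 4 and X. Of these, 35 lay on 3L, 21 on 2R, 5 on 2L, 5 on 3R and 4 on X. Each was examined for binding of CG15696, a homeodomain protein, by chromatin immunoprecipitation sequencing (ChIP-seq) in whole Drosophila melanogaster embryos of mixed sex aged 2 to 8 h. All embryos came from a transgenic line that makes CG15696 with green fluorescent protein (GFP) at its C-terminus, and the tag was the target of the antibody. There were 2 biological replicates, numbered 1 and 3, of this 1 group, and hence no comparison between conditions. Nothing in the labels ties the embryos to a tissue, so binding in epidermis and in other cells cannot be told apart. Expression was not measured.

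Cpr proteins are secreted by epidermal cells into the cuticle, where a conserved stretch named after Rebers and Riddiford (RR) binds chitin. They are structural components of the exoskeleton, and different members serve larval, pupal and adult cuticle. Many arose by tandem duplication and sit side by side in clusters. Cuticle is laid down late in embryogenesis, after the ages sampled here, and again in each moult under the control of ecdysone.

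The reproducible sites, those kept by the authors under an irreproducible discovery rate (IDR) threshold, numbered 5354. A gene's territory was its body plus 2 kb to each side, and 7 reproducible summits lay in Cpr territories. The 101 bases centred on each of these 7 summits are shown because they are all the reproducible sites of the family. They are the plus strand of dm6, read from RefSeq's Release 6 assembly, with each match to the homeodomain motifs TAATTA and TAATTG or to the TATA box TATAAA in capitals, on either strand.
Cpr31A site, chr2L:10057395-10057495: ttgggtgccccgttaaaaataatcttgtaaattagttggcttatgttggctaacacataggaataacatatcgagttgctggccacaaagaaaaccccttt
Cpr76Ba site, chr3L:19516697-19516797: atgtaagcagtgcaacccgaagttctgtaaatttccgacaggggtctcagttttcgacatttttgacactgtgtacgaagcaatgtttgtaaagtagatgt
Cpr100A site, chr3R:30865572-30865672: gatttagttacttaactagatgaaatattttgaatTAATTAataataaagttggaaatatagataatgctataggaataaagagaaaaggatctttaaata
Cpr64Aa and Cpr64Ab site, chr3L:4209895-4209995: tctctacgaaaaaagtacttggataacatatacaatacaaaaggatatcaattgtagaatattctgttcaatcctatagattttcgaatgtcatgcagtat
Cpr67Fa2 and Cpr67Fb site, chr3L:10893476-10893576: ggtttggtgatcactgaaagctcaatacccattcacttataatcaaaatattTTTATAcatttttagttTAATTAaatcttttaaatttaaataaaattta
Cpr65Ay and Cpr65Az site, chr3L:6159925-6160025: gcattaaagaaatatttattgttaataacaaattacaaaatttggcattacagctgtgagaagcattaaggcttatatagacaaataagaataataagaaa
Cpr65Av and Cpr65Aw site, chr3L:6140333-6140433: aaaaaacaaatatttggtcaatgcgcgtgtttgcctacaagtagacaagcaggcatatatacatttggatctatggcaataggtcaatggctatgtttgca

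TAATTA was found in 2 of the 7 windows, those of Cpr100A and of Cpr67Fa2 and Cpr67Fb, and in 10.6% of all 5354 reproducible sites. TAATTG was in none of the 7 and in 10.9% of all. TATAAA was in 1 of the 7, again that of Cpr67Fa2 and Cpr67Fb, and in 24.3% of all. The windows were rich in A and T, with a GC content of 19.8 to 40.6%, and their median of 28.7% stood beside 31.7% for all reproducible sites. With 7 windows these counts are a description only.

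Few Cpr genes had a reproducible site. Those that did had it outside the gene, and no such site was among the 1000 strongest peaks. Of the 70 members, 11 (15.7%) had a reproducible summit in the territory, against 37.2% of all 13945 protein-coding genes. Cpr genes are short, with a median body of 1093.5 bp against 2166 bp over all genes, and short genes have smaller territories. Other genes of the same deciles of length, weighted by the number of members in each, had a site in 29.4% of cases. At that share 20.6 of 70 genes would have had one, so the members' share was 0.535 of the length-matched share. No test was made over the members, which share sites and neighbourhoods.

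Replicate lists taken alone gave similar shares. The strongest 5354 peaks of replicate 1 placed a summit in 11 territories (15.7%), against 36.2% of all genes and 28.9% of length-matched ones. Those of replicate 3 did so in 13 (18.6%), against 37.9% and 30.1%. The list called on both replicates together (30000 peaks, the combined list here) holds the reproducible sites and the weaker peaks below the IDR threshold. It placed a summit in the territory of 33 members (47.1%), against 74.2% of all genes and 66.2% of length-matched ones. These 33 include the 11 with a reproducible site. In the full list of replicate 1, also 30000 peaks, 33 members had a summit against 72.6% of all genes. In that of replicate 3 it was 39 members (55.7%) against 78.7% of all genes. Over all arms, the Cpr share was below the length-matched share and below that of all genes in each of these lists.

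**Figure D1:**
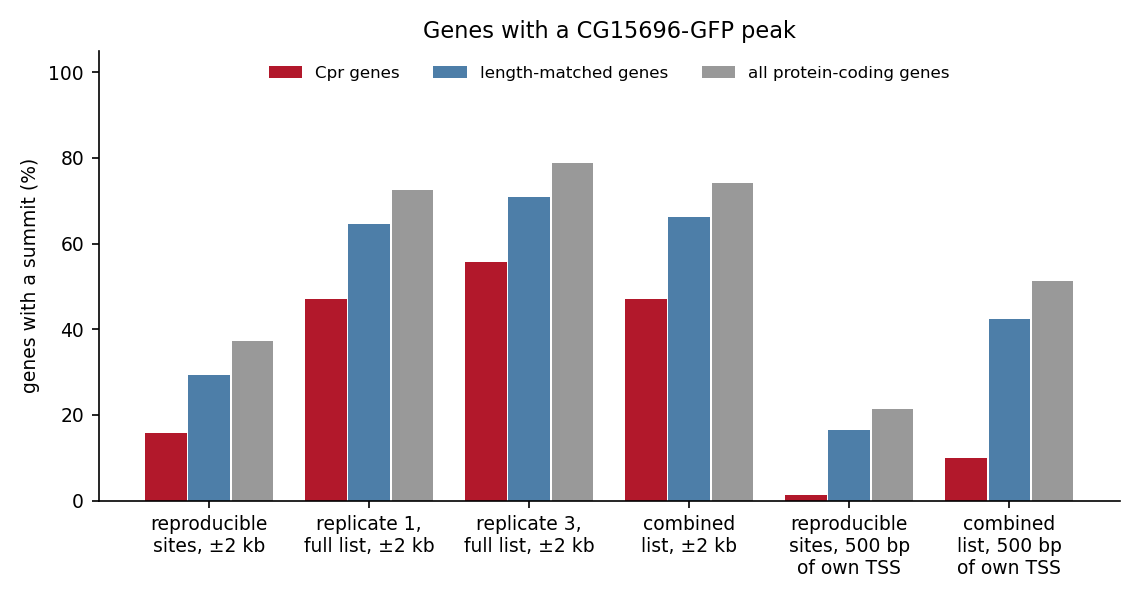
Share of genes (%) with a summit in the body or within 2 kb, or within 500 bp of an own transcription start site (TSS), in 4 peak lists; bars are Cpr genes, length-matched genes and all protein-coding genes. The Cpr bar is the lowest of the 3 in every pair of list and window, at 15.7% against 37.2% of all genes for reproducible sites and 1.43% against 21.4% at the own TSS.

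Sites at the start of Cpr genes were rarer still. A reproducible summit lay within 500 bp of an own transcription start site (TSS) in 1 of 70 members, against 21.4% of all genes and 16.4% of length-matched ones. That member was Cpr65Av, with its summit 409 bp from the TSS. In the combined list it was 7 members (10%), against 51.3% of all genes and 42.3% of length-matched ones. No reproducible summit lay inside the body of a member, whereas 11.8% of all genes and 5.50% of length-matched genes had one there.

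The 7 members with a peak of the combined list near the own TSS were led by Cpr65Av (rank 4681). Cpr72Eb had a summit 486 bp from its TSS (rank 5966), and Cpr67Fb 442 bp from its TSS (rank 10743). Weak peaks made up the others. Cpr78Ca had a summit 7 bp from its TSS at rank 19933, Cpr66D one 263 bp away at rank 23581, Cpr78Cb one 103 bp away at rank 23924, and Cpr51A one 122 bp away at rank 28028. Among these 7 peaks, only that of Cpr65Av was a reproducible site.

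The distance from a member's TSS to the nearest reproducible summit had a median of 12887.5 bp, with quartiles of 3647 and 22290 bp. Over all genes the median was 6362 bp and the quartiles 1067 and 18259 bp. Within 2 kb of the TSS, 12.9% of members had a reproducible summit against 30% of all genes, and within 20 kb 68.6% against 76.9%. At 50 kb the order turned, with 97.1% of members and 92.1% of all genes. In the combined list the median distance was 3021.5 bp for members and 448 bp for all genes.

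**Figure D2:**
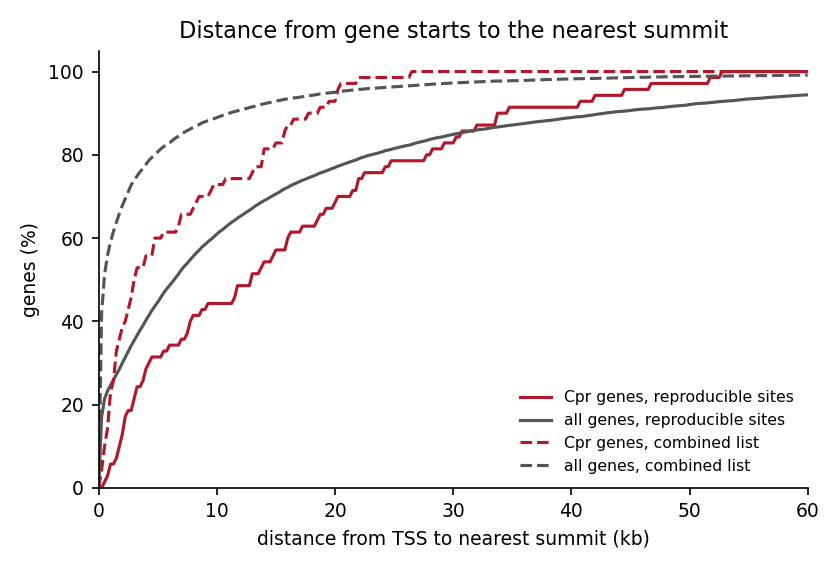
Cumulative share of genes (%) by the distance (kb) from any own TSS to the nearest summit, for Cpr genes and for all protein-coding genes, in the reproducible sites (solid) and in the combined list (dashed). The solid Cpr curve runs below that of all genes at short range and crosses it near 30 kb, to reach 97.1% against 92.1% at 50 kb.

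The strongest site in a Cpr territory was shared with an unrelated neighbour. It lay on 2L from 10057318 to 10057552, past the 3′ end of Cpr31A, in an intron of Pen, which encodes an importin-alpha nuclear transport factor. Its summit was 545 bp from a TSS of Pen and 3232 bp from that of Cpr31A. It ranked 1242 of 5354 with a signal of 493, and ranked 1569 in replicate 1 (signal 155) and 1200 in replicate 3 (signal 320). Signal is the authors' value per peak, of unstated scale, so ranks and not signals compare lists. This was the 1 site of the 7 whose nearest TSS belonged to another family.

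For the other six the nearest TSS was that of a Cpr gene. The site of Cpr76Ba, the first gene of a cluster of 4, lay past its 3′ end, 1585 bp from its TSS, on 3L from 19516617 to 19516869 and ranked 1366 (signal 456). It ranked 1010 in replicate 1 (signal 213) and 1660 in replicate 3 (signal 246). The other genes of that cluster, Cpr76Bb, Cpr76Bc and Cpr76Bd, had no reproducible site. Cpr100A, a single gene on 3R, had a site 1899 bp upstream of its TSS, from 30865526 to 30865722, at rank 1930 (signal 345). It ranked 2732 in replicate 1 (signal 102) and 1667 in replicate 3 (signal 244). These 3 sites were the only ones of the family above the median signal of all reproducible sites, which was 259.

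The other four, all on 3L, stood near the lower end of the IDR list, whose weakest site had a signal of 134. Each lay in the territories of 2 adjacent members. The site of Cpr64Aa and Cpr64Ab ranked 4264 (signal 166), in an intron of CG43367 and 767 bp from the TSS of Cpr64Aa. It ranked 5143 in replicate 1 (signal 62.9) and 4089 in replicate 3 (signal 102). The site between Cpr67Fa2 and Cpr67Fb, 647 bp from the TSS of Cpr67Fb, ranked 4470 (signal 159), and ranked 4544 (signal 68.7) in replicate 1 and 5278 (signal 78.4) in replicate 3. The gene Aps, which encodes an inositol polyphosphate phosphohydrolase, also has this site in its territory.

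The last pair of sites belonged to the Cpr65A cluster. One, between Cpr65Av and Cpr65Aw on 3L from 6140181 to 6140584, ranked 4681 (signal 152). It ranked 4436 in replicate 1 (signal 70.0) and 5758 in replicate 3 (signal 71.7), so it was past rank 5354 in replicate 3. The other, between Cpr65Ay and Cpr65Az from 6159773 to 6160176, ranked 4503 (signal 158) and 4397 in replicate 3 (signal 94.7). No replicate 1 summit lay within 100 bp of it. The replicate 1 peak there (rank 4756, signal 66.5) matched the adjoining peak of the combined list (rank 7711), whose summit was 638 bp from the TSS of Cpr65Az against 839 bp for the reproducible one. Both sites lay between gene bodies.

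Of the 7 sites, 5 were intergenic, taken as outside every protein-coding body, and 2 were in introns of other genes. Over all reproducible sites 48.3% were intergenic in this sense. The nearer TSS was also looked at gene by gene. For 6 of the 11 members, at least 1 of their sites had the member's own TSS as its nearest, which is 54.5% against 57.3% of the 5192 genes with a site. The 6 were Cpr64Aa, Cpr65Av, Cpr65Az, Cpr67Fb, Cpr76Ba and Cpr100A. The other five were Cpr31A and the partners Cpr64Ab, Cpr65Aw, Cpr65Ay and Cpr67Fa2.

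**Figure D3:**
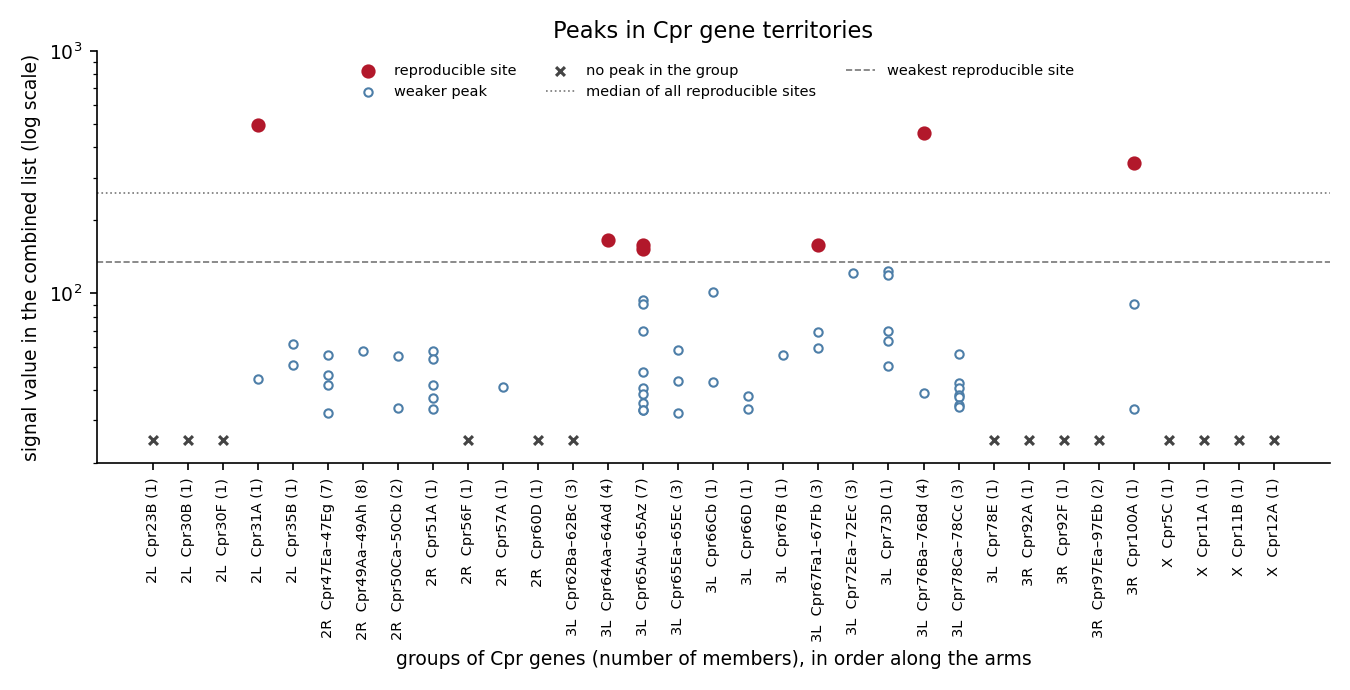
Signal value (log scale) of each peak of the combined list in a Cpr territory, by group of neighbouring members in order along the arms; filled points are the 7 reproducible sites, open points the 51 weaker peaks, and crosses groups with no peak in this list. Only 3 sites stand above the median of all reproducible sites (dotted, 259), and the groups on X and most on 3R hold none.

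The combined list held 58 peaks in Cpr territories, 51 of them below the IDR threshold. The signal of these 51 ran from 32.0 to 124. Their −log10 q value ran from 0.121 to 3.37 with a median of 0.383, so most had little statistical support from the authors' caller. Weak peaks were common in the whole list, whose lowest −log10 q value was 0.114. All 58 peaks together had a median signal of 50.5, near the 53.0 of the whole list, and a median rank of 15994.5 of 30000. The strongest peak of a territory fell among the 1000 strongest peaks in no member, against 9.78% of all genes and 7.40% of length-matched ones. It fell beyond rank 1000 but within the first 5354 in 11 members (15.7%), against 27.5% of all genes and 22% of length-matched ones. Below these and down to rank 15000 the shares were closer, with 16 members (22.9%) against 24.0% and 22.3%. Beyond rank 15000 they were 6 members (8.57%) against 13.0% and 14.5%. No peak of the combined list was found in 37 members (52.9%), against 25.8% of all genes and 33.8% of length-matched ones.

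The 4 strongest peaks below the threshold each ranked higher in replicate 3 than in replicate 1. Cpr73D, the longest member with 18590 bp, had 5 peaks of the combined list in its territory, the strongest at rank 5861 (signal 124) within introns of both Cpr73D and Ogdh, which encodes 2-oxoglutarate dehydrogenase. That peak ranked 20837 in replicate 1 (signal 23.2) and 3726 in replicate 3 (signal 112), and its nearest TSS, 507 bp away, was of Ogdh. Of the 31-base words in the territory of Cpr73D, 40.2% occur elsewhere on the arms, and the part of this in its peaks was not tested. A further peak of Cpr73D, in its own intron and 1500 bp from its TSS, ranked 6077, with rank 10749 in replicate 1 and 5124 in replicate 3. One peak at rank 5966 (signal 121) lay in the territories of all 3 genes of the Cpr72E cluster, and ranked 15977 in replicate 1 (signal 27.9) and 4243 in replicate 3 (signal 97.9). Next came Cpr66Cb, whose peak at rank 7159 lay 24 bp from the TSS of Pex2, a peroxisome assembly gene, with rank 9040 in replicate 1 and 6342 in replicate 3. The order was the other way for the next pair, both in the territory of Cpr65Ay. The peak at rank 7711 ranked 4756 in replicate 1 and 12187 in replicate 3, and that at rank 8084 ranked 6340 in replicate 1 and 22004 in replicate 3.

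The replicates overlapped on the members but not fully. In the full lists 30 members had a summit in both replicates, 9 in replicate 3 only, 3 in replicate 1 only and 28 in neither. Among the strongest 5354 peaks of each, 9 members were in both, Cpr65Av and Cpr65Aw in replicate 1 only, and Cpr72Ea, Cpr72Eb, Cpr72Ec and Cpr73D in replicate 3 only. Of the 58 peaks of the combined list, 23 had a summit within 100 bp in both replicate lists. Of the others, 14 had a partner in replicate 3 only, 12 in replicate 1 only and 9 in neither. The same overlaps were not computed over all genes or over all peaks of the combined list. These counts therefore describe the lists at Cpr genes and are not shown to be particular to the family.

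**Figure D4:**
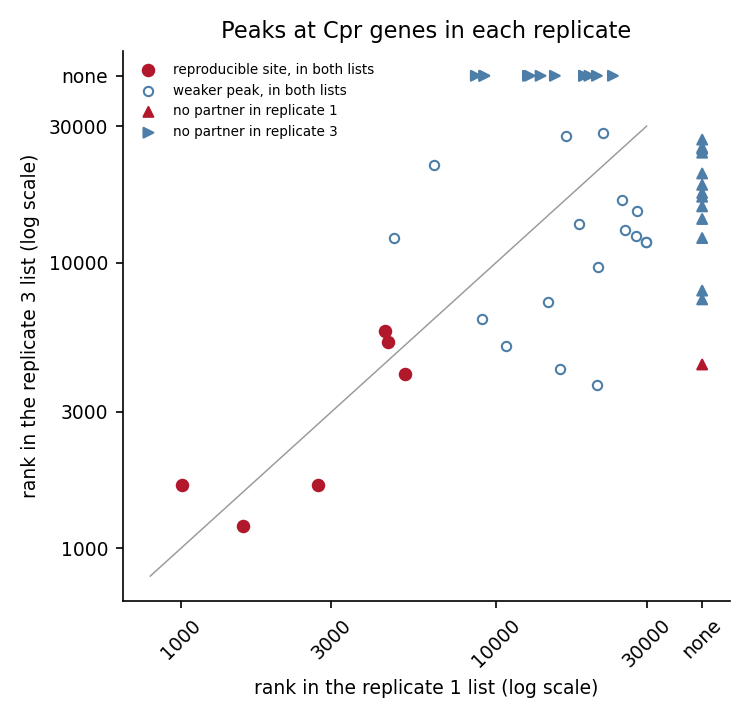
Rank of each Cpr-territory peak of the combined list in the replicate 1 list (x) and in the replicate 3 list (y), both on log scales, by summits within 100 bp; triangles mark peaks with a partner in 1 list only, and the 9 with none are not drawn. The reproducible sites lie near the diagonal except that of Cpr65Ay and Cpr65Az, which has no partner in replicate 1, and the weaker peaks scatter widely. The scatter over all peaks of the combined list was not computed.

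The clusters differed from each other. With members joined where the gap was at most 20 kb, there were 12 clusters of 2 or more, holding 49 members, and 21 single genes. The cluster from Cpr47Ea to Cpr47Eg on 2R spanned 26.7 kb with 7 members and no reproducible site. Its peaks of the combined list lay only in the territory of Cpr47Eg. Those at ranks 14026 and 17970 were nearest to a TSS of Vhl and of TpnC47D. Those at ranks 20633 and 29426 were nearest to the TSS of Cpr47Eg, 1507 and 1202 bp away. The cluster from Cpr49Aa to Cpr49Ah, also on 2R, had 8 members over 38.5 kb and 1 peak of the combined list, at rank 13320 near CG13159 and Cpr49Aa. No member on 2R had a reproducible site, 0 of 21, where 29.6% of length-matched genes of that arm had one. On 3L it was 9 of 35 members (25.7%), with 29.5% among length-matched genes of the arm. The arms also stood apart in the combined list. On 3L 25 of 35 members (71.4%) had a peak of it in the territory, beside 69.4% of length-matched genes of the arm. On 2R it was 5 of 21 (23.8%) beside 68.8%, on 2L 2 of 5 beside 61.9%, on 3R 1 of 5 beside 74.3%, and on X 0 of 4 beside 62.4%. By territories, the lower share of the whole family in this list thus came from arms other than 3L. Some peaks on 3L counted for more than 1 member, among them that of the whole Cpr72E cluster. The share at the own TSS was not split by arm.

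All 4 members on X, Cpr5C, Cpr11A, Cpr11B and Cpr12A, had no peak in any of the 4 lists. The same held for 10 of 21 members on 2R, 7 of 35 on 3L, 4 of 5 on 3R and 1 of 5 on 2L. In all, 26 members (37.1%) had no peak in any list, against 15.6% of all genes and 22.5% of length-matched ones. On 3R these were Cpr92A, Cpr92F, Cpr97Ea and Cpr97Eb, which left Cpr100A as the 1 member there with a peak. In the Cpr62B cluster Cpr62Ba and Cpr62Bb had peaks in replicate 3 only and Cpr62Bc had none.

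The Cpr65A cluster held the most sites. From Cpr65Au to Cpr65Az it spanned 30.3 kb with 18 protein-coding genes, of which 7 were Cpr genes, 10 were RR-type cuticle genes of other names (Lcp65A genes for larval cuticle and Acp65Aa for adult cuticle), and 1 was CG13297. There were 2 reproducible sites and 8 summits of the combined list in it. None of the 10 other cuticle genes had a reproducible site in its territory, and 2 had a peak of the combined list. At the far end a run of peaks (ranks 10520 and 25908) lay between Cpr65Az and Prdm13, closer to the TSS of Prdm13.

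**Figure D5:**
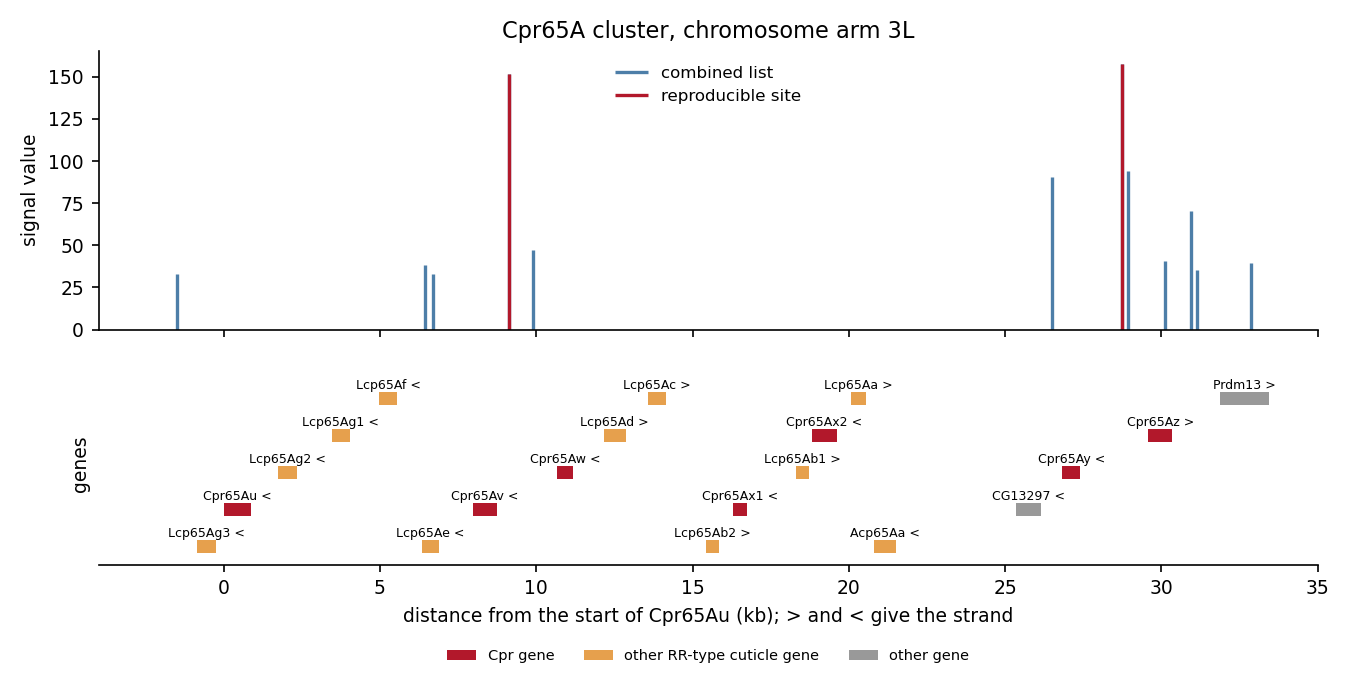
Signal value of each summit (top) and protein-coding genes (bottom, staggered for legibility; Cpr red, other RR-type orange, others grey) along the Cpr65A cluster, by distance (kb) from the start of Cpr65Au; red lines are the 2 reproducible sites (signal 152 and 158), blue lines weaker peaks of the combined list. A gap without any peak covers the middle of the cluster, where Cpr65Ax1 and Cpr65Ax2 lie.

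Part of this gap is repeated sequence. All 31-base words in the bodies of Cpr65Ax1 and Cpr65Ax2 occur again on the arms, as do 66.3% and 46.7% of those in their territories. How the authors treated reads that match more than one place is not given in the sources used here, and its part in the absence of peaks was not tested. Elsewhere repeats were rare. Only 5 members, this pair with Cpr30F, Cpr65Au and Cpr73D, had over 5% of such words in their territory, and 33 of the 37 members with no peak of the combined list had 1% or less. The tandem pair Cpr67Fa1 and Cpr67Fa2 had 13.2% and 11.6% of body words repeated.

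Some reproducible sites nearest to a Cpr TSS lay beyond 2 kb. Of the 5354 sites, 11 had a Cpr TSS as their nearest, 6 of them within a territory. The strongest of the other five ranked 225 with a signal of 1362, on 3R from 19584695 to 19585252, and stood 13990 bp from the TSS of Cpr92A. Cpr51A had 1 such site 3054 bp away (rank 3906), Cpr65Eb 1 at 2178 bp (rank 4385), and Cpr35B 2, at 9486 bp (rank 4041) and 7506 bp (rank 4325). Cpr92A had no peak of any list in its territory.

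No gene of 3 other cuticle protein lists had a reproducible site, while every regulator listed did. Among RR-type genes of other names (Lcp, Ccp84A, Acp65A, Edg, Pcp, Acp1 and Crys) 0 of 28 had a reproducible site, beside 21.3% of length-matched genes. This list was drawn up by symbol, and its proteins were not searched for the RR consensus. Tweedle genes, another cuticle protein family, had 0 of 25 beside 28.1%, and peritrophin-type cuticle genes (obst genes and Gasp) 0 of 9 beside 34.2%. In the combined list 11 of 28 RR-type genes of other names had a peak, beside 56.4% of length-matched genes, and 4 of 25 Tweedle genes, beside 65.7%. For the peritrophin-type genes it was 6 of 9 (66.7%), near the 71.7% of length-matched genes. Of 11 genes of chitin synthesis and assembly 4 had a reproducible site, against 49.0% of length-matched genes. The strongest was at Chs2, a chitin synthase gene (rank 774, 353 bp from its TSS). It was followed by the chitinase gene Cht7 (rank 2319, with a TSS of PAN3, 8934 bp away, as its nearest). The others were rtv (rank 4239, 61 bp from its TSS), needed for chitin assembly, and mmy (rank 5179, 593 bp from its TSS), which makes the sugar donor for chitin. The list also held kkv, which had no reproducible site.

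Of 7 genes of sclerotization and pigment 1 had a reproducible site, the melanin gene y (rank 3926, 5777 bp from its TSS), beside 47.7% of length-matched genes. All 10 regulators of cuticle genes had one, led by grh (rank 61, 2075 bp from its TSS), a factor for epidermal barrier genes. It was followed by members of the ecdysone response, Eip75B (rank 178, 5394 bp from its TSS), Hr3 (rank 330) and EcR (rank 538, 5834 bp from its TSS). The nearest TSS to the Hr3 site was that of CG46321, 7861 bp away. Among genes of their length 59.3% had one. These lists were drawn up with earlier results of these data known, and none was tested.

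The core promoters of the family were inspected because the reproducible summits stood apart from them. TATAAA on the sense strand, starting 40 to 20 bases before the outermost TSS, was found in 34 of the 70 Cpr promoters (48.6%) and in 7.79% of all 13945. It was in 6 of the 11 promoters of members with a reproducible site and in 28 of the 59 without, which is 54.5% and 47.5% of these groups. Over the whole window from 250 bases before to 50 after the TSS, on either strand, TATAAA was in 70% of Cpr promoters and 45.8% of all, TAATTA in 14.3% and 20.4%, and TAATTG in 27.1% and 25.2%.

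Core promoters are printed for 4 of the 6 members that had both a reproducible site and TATAAA at the core position. Cpr31A and Cpr67Fa2 also had both and are not printed. Other members with a reproducible site, among them Cpr65Az and Cpr67Fb, had no TATAAA at the core position and are not printed. In Cpr65Az and Cpr67Fb TATAAA occurs farther upstream, within 60 bases of the TSS. Each printed promoter is on the strand of the gene from 60 bases before to 10 after the TSS (dm6, from the RefSeq genome). The TATA box and the first transcribed base are in capitals. The nearest summit to any of the 4 printed starts is 409 bp away, at Cpr65Av.
Cpr65Av promoter, chr3L:6139964-6140034, minus strand: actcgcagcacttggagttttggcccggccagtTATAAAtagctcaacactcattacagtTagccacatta
Cpr64Aa promoter, chr3L:4209168-4209238, minus strand: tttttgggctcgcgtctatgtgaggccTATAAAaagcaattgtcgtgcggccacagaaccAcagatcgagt
Cpr76Ba promoter, chr3L:19518322-19518392, minus strand: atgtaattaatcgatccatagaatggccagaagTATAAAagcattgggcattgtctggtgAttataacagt
Cpr100A promoter, chr3R:30867461-30867531, plus strand: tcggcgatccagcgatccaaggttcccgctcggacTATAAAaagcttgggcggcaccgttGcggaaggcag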

How the data were processed

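ChIP-seq peak lists were analysed for 2 biological replicates of 1 group, on dm6 per the labels. The authors called peaks on each replicate and on both together against 1 control alignment, and derived the IDR list from these, per the notes deposited with the files. No source used here gives the caller, versions, IDR threshold or read depth, so precision from depth is unknown. The deposited signal value per peak (coverage signal against the control, scale not stated) ranked peaks within a list. The deposited −log10 q value per peak was used only as a description. All 5354 IDR sites are the 5354 strongest peaks of the combined list. The replicate lists and the IDR list are therefore not independent.

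Summits were column 2 plus column 10. Genes and TSSs of protein-coding transcripts came from Ensembl release 115, sequence from the RefSeq Release 6 genome. Length-matched shares were taken over all non-member genes of the same 10 deciles of body length, weighted by members per decile. They are descriptions, and no p-value was computed. Peaks were matched between lists at 100 bp. Motifs were searched within 50 bp of summits. Members, lists and rules were chosen with earlier results of these data known. Named genes are all members with a reproducible site, those with the strongest combined peaks or a summit near an own TSS, the nearest neighbours, and up to 4 genes per list; any further member was named with its values in view. Alternatives varied the window, list, replicate, matching and membership. The planned search of member proteins for the RR consensus was not run, since no protein table was used here. Python 3.11.15, NumPy 2.4.6, pandas 2.3.3 and SciPy 1.17.1 were used, and counting was checked on planted summits.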

Additional observations from a re-analysis of the deposited data

How the results depend on the processing

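Of 44 alternatives over 6 results, 29 stayed within 1.5 times the count given, or, for a ratio, within the 95% Wilson interval of the members' share over the length-matched share, 15 moved further and 0 reversed. That interval runs from 0.307 to 0.885 for reproducible sites and from 0.543 to 0.887 for the combined list. It covers counting error only and takes members as independent, which members with shared sites are not, so a ratio inside it is not shown to be stable. The window mattered most. The members with a reproducible site numbered 0 with the body alone, 6 at 1 kb and 22 at 5 kb. The ratio to length-matched genes was 0 with the body alone, 0.368 at 1 kb and 0.718 at 5 kb. Members with a peak of the combined list numbered 9 with the body alone, a ratio of 0.499. The sites nearer to a neighbour's TSS numbered 0 with the body alone, 0 at 1 kb and 6 of 14 at 5 kb. Among the IDR sites above the median signal, 3 members had a site (ratio 0.24) and 0 had one at the own TSS. At the own TSS there were 0 members within 200 bp and 4 within 1000 bp. Within 250 bp it was 0% of members against 17.1% of all genes, and within 1000 bp 5.71% against 24.6%. Sites nearer to a neighbour's TSS numbered 2 of 9 without replicate 1 and 1 of 7 without replicate 3. The strongest 5354 peaks of 1 replicate, which passed no IDR threshold, gave 11 to 13 members with a peak (ratios 0.543 to 0.618), and the full lists 33 to 39 (ratios 0.73 to 0.787). At the own TSS the strongest 5354 peaks gave 1 member each, Cpr65Av in replicate 1 and Cpr72Eb in replicate 3, so Cpr65Av was lost without replicate 1. Counting members with overlapping territories once (48 genes) gave a ratio of 0.407, and matching on the distance to the nearest neighbour in place of length 0.483. Every ratio among these alternatives stayed below 1. They did not include the split by arm. On 3L, 71.4% of members had a peak of the combined list, above the 69.4% of length-matched genes of that arm. No paired analysis was possible because there is 1 group.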

Other observations

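The TATA box at the core position was also looked for in the other gene lists. It was found in 21 of 28 RR-type genes of other names (75%) and in 15 of 25 Tweedle genes (60%), against 7.79% of all genes. Peritrophin-type cuticle genes had it in 1 of 9, genes of chitin synthesis and assembly in 2 of 11, those of sclerotization and pigment in 2 of 7, and the regulators in 0 of 10. All 10 regulators had a reproducible site, beside 59.3% of length-matched genes. Among Cpr genes the box was in 54.5% of members with a reproducible site and in 47.5% of those without. Whether TATA boxes and CG15696 sites are linked was not tested.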
